A study of Mus musculus with 9 samples.

Results

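Interferon-stimulated genes (ISGs) are the genes that cells switch on when interferon binds its receptor, and they were described here in 9 mammary tumours of BlgCre-NeuKI mice by RNA sequencing. The members were chosen by gene symbol from a list of 34 mouse ISGs. Of these, 33 were measured among the 18484 genes counted, each by 1 row, and Mx2 was not analysed here. All 33 passed the filter on low counts (10 or more counts in 3 or more of the 8 epithelial tumours), so every member measured was tested.

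All 9 tumours came from mice that carried the BlgCre transgene, in which the beta-lactoglobulin promoter drives Cre mainly in luminal cells, and the conditional NeuKI allele, which places activated rat Neu in the mouse Erbb2 locus, on a mixed FVB/C57Bl6 background. The 5 tumours labelled as having high amplification of the Erbb2/Neu locus were all adenocarcinomas of no special type, AC(NST), and are called high-amplified here. For MS1213.1 and MS1218.2 this label is uncertain, since the methods used to count copies of the locus did not give the same answer. The virgin mice bore MS1213.1, MS1163.2 and MS1163.1, and the parous mice bore MS1155.3 and MS1218.2. The 3 tumours without amplification, or with a low level of it, all came from parous mice: MS1210.1 and MS1349.1, adenosquamous carcinomas (ASQC), and MS1166.1, an AC(NST). MS1156.1 was a sarcoma of a parous mouse, also not/low-amplified by its label. Each library is 1 tumour, and by their numbers MS1163.2 and MS1163.1 come from a single mouse. Every ASQC was not/low-amplified and every virgin mouse's tumour was high-amplified, so amplification, histotype and reproductive history cannot be told apart in these groups.

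As background, type I and type III interferons bind cell-surface receptors that activate the kinases JAK1 and TYK2, which phosphorylate STAT proteins. STAT2 and IRF9 are subunits of the resulting complex ISGF3, which binds the interferon-stimulated response element (ISRE) in ISG promoters. Type II interferon acts mainly through the gamma-activated site (GAS). The products include sensors of viral RNA and DNA, the factors that relay the signal, and effectors that bind, degrade or block viral RNA and proteins. In tumours, ISGs can be expressed by the tumour cells and by infiltrating leukocytes, and bulk RNA does not separate fewer cells of a type from less RNA per cell.

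The promoters of the members are shown for the response element that names the group. RefSeq start sites on build GRCm38.p6 were found for 25 of the 33 members measured. Both strands of each promoter, from 250 bases before to 50 after the start site, were searched for the ISRE core, taken as GAAA and GAAA separated by 2 bases of any kind, and for the GAS core, taken as TTC and GAA separated by any 3 bases. The ISRE core occurred in 14 of the 25 members, against 3.80% of the 10526 tested genes with such a promoter, and 6 of the 14 held 2 or more matches. The GAS core occurred in 6 of the 25, against 8.43% of these tested genes, and overlapped an ISRE match in 1. No promoter was matched for Mx1, Oas2, Usp18, Dhx58, Parp9, Parp14, Zbp1 and Rtp4. The stretches below are the 200 bases before the start site of 5 members with 2 or more ISRE matches, which recur in the comparisons, written along the gene's own strand with the ISRE matches in capitals. Where the core lies on the other strand, it reads as TTTC and TTTC.
Isg15, chr4:156200819-156201018, reverse strand: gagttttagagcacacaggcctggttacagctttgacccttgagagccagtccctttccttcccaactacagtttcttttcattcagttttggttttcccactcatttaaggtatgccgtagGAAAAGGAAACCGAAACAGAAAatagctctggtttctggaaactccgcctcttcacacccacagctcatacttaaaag
Ifit1, chr19:34640689-34640888, forward strand: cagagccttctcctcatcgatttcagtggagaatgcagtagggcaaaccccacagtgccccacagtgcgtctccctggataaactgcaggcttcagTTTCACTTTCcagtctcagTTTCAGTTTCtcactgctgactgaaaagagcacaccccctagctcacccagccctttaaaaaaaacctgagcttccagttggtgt
Bst2, chr8:71537473-71537672, reverse strand: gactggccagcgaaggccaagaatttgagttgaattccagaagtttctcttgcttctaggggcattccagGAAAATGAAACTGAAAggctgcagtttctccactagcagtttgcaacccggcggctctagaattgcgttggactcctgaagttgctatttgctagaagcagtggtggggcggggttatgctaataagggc
Oas1a, chr5:120907526-120907725, reverse strand: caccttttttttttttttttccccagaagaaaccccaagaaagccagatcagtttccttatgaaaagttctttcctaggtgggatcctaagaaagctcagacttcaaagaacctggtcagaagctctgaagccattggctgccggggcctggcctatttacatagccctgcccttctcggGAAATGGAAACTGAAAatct
Gbp3, chr3:142559844-142560043, forward strand: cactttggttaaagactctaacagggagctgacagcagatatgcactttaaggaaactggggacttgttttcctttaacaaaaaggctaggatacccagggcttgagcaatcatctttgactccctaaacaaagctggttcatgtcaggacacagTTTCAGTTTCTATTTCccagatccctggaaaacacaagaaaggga
In Isg15, Bst2 and Oas1a the matches overlap in a tandem run of GAAA repeats, and in Gbp3 they overlap as TTTC repeats. Gbp3 has 2 promoters in the search, and the other one, not shown, held no ISRE match. Ifit1 holds 2 separate matches, whose first bases lie 104 and 85 bases before the start site. The Isg15 run starts 78 bases, and the Oas1a run 20 bases, before the start site. A match is a description of the sequence, and binding was not measured.

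Depth ranged from 12501225 to 23912429 counted reads per tumour, and normalized counts are these counts divided by the median-of-ratios size factor of each tumour. Erbb2, the gene whose amplification defines the groups, lay between 5284 and 105019 normalized counts in the high-amplified and between 1532 and 2783 in the not/low-amplified tumours. Luminal epithelium markers (Krt8, Krt18, Krt19, Epcam and Cdh1) summed to between 30715 and 126241 in the 8 epithelial tumours and to 456 in the sarcoma. Squamous markers (Krt1, Krt10, Ivl, Lor, Flg and Krt6a) summed to 14969 and 2882 in the ASQC tumours and to at most 442 elsewhere. The study's methods report a high tumour-cell purity, estimated from the RNA, for every sample except MS1218.2. Values for named genes are given in the order MS1213.1, MS1163.1, MS1163.2, MS1218.2 and MS1155.3 for the high-amplified tumours and MS1210.1, MS1349.1 and MS1166.1 for the not/low-amplified tumours. The spread is between single tumours, and log2 fold changes are high-amplified minus not/low-amplified unless another comparison is named.

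ISG levels were lower in the high-amplified than in the not/low-amplified tumours for 31 of the 33 members by the fitted fold change, against 49% of all genes, and higher for Stat2 and Mx1, whose small differences turned negative with limma. The median log2 fold change of the members was −1.20, between −2.62 (Oas3) and 0.17 (Mx1), against 0.02 over all 14007 genes tested. 21 members were over 2-fold lower in the high-amplified tumours, against 10% of all genes. None passed the test: edgeR's quasi-likelihood test (adjusted p under 0.05 and over 2-fold) called 0 of the 33, against 0.485% of all genes in that direction. At an unadjusted p under 0.05, edgeR gave 10 members, all lower in the high-amplified tumours, against 11% of all genes. DESeq2 called 8 members in the same direction (Isg15, Ifit2, Oas3, Bst2, Parp9, Dtx3l, Gbp3 and Rtp4), against 4.32% of all genes. The count called therefore differs between the tools, and edgeR's smallest adjusted p among the members was 0.0816 (Parp9).

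**Figure D1:**
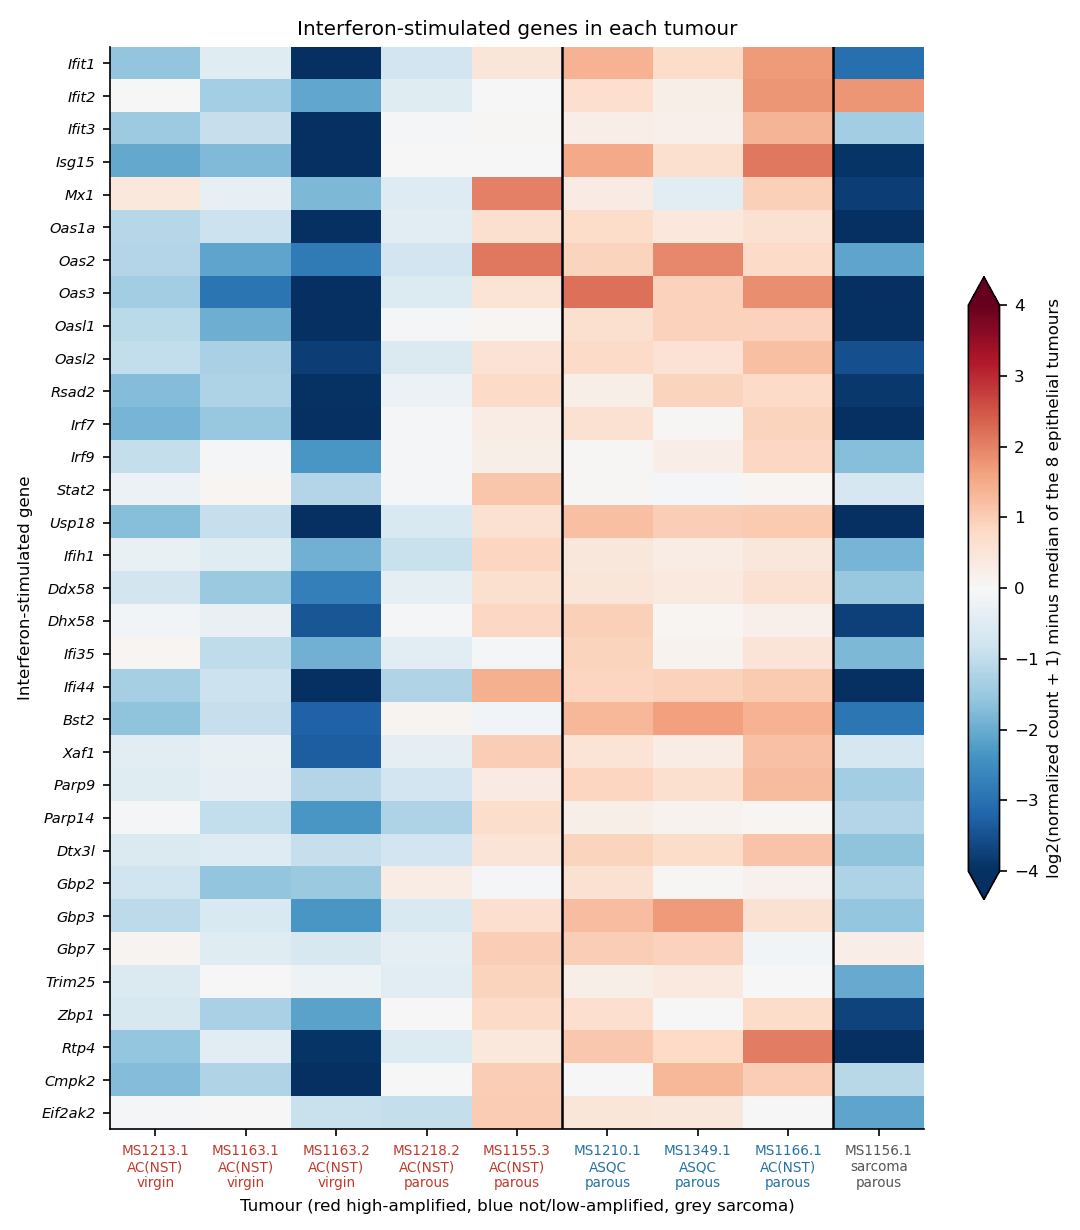
Heat map of the 33 members (rows) in 9 tumours (columns), as log2(normalized count + 1) minus the gene's median over the 8 epithelial tumours, with colours ending at 4 above and below the median. MS1163.2 (lowest of the 8 epithelial tumours for 30 members) and the sarcoma hold the deepest blue, and the 3 not/low-amplified tumours and MS1155.3 are mostly red.

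The 3 not/low-amplified tumours all lay above all 5 high-amplified tumours for 12 of the 33 members, against 8.04% of all genes tested. These 12 were Ifit1, Ifit2, Ifit3, Isg15, Usp18, Oas3, Oasl1, Bst2, Ifi35, Rtp4, Parp9 and Dtx3l. Where the groups overlapped, it was mostly through MS1155.3. This tumour lay below all not/low-amplified tumours for 13 members and above all of them for 11, against 32.4% and 31.7% of all genes. The other high-amplified tumours lay below all not/low-amplified tumours for 31 members in MS1213.1 and MS1163.1, 32 in MS1218.2 and 33 in MS1163.2, each against 31.1% to 35.4% of all genes. Without MS1155.3 the median log2 fold change was −1.74 and 24 members had an unadjusted p under 0.05, all lower in the high-amplified tumours, against 9.04% of the genes of that fit, with 0 called by edgeR. Without MS1213.1 and MS1218.2, whose amplification label is uncertain, the median was −1.09 and 30 members were lower in the high-amplified tumours. In that fit edgeR called 0 members, 7 had an unadjusted p under 0.05, all lower, against 12.9% of genes, and the remaining groups did not overlap for 13 members, against 16.4%.

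The ISG15 system holds a ubiquitin-like protein and its enzymes. Isg15 (chr4:156199424-156200818), the modifier itself, had 96.3, 118, 16.2, 391 and 406 normalized counts in the high-amplified and 1147, 622 and 1715 in the not/low-amplified tumours. Every not/low-amplified value exceeded every high-amplified value, and within the high-amplified group the tumours of parous mice were the higher ones. On the log2 scale the fold change of Isg15 was −2.47 (SE 0.80, adjusted p = 0.124, edgeR), and DESeq2 called it (adjusted p = 0.0208). Usp18 (chr6:121245906-121270917), the protease that removes ISG15 and also restrains the interferon receptor, had 179, 308, 8.70, 378 and 891 against 1345, 1146 and 1211. It spanned 102-fold within the high-amplified tumours, where MS1163.2 had only 7 reads, and 1.17-fold within the not/low-amplified tumours. Its log2 fold change was −1.78 (SE 0.88, adjusted p = 0.259, edgeR). Trim25, a ubiquitin and ISG15 ligase that also activates the sensor encoded by Ddx58, behaved differently: it had 1501, 2223, 1939, 1657 and 4203 against 2652, 2941 and 2278. Its values overlapped between the groups and spanned 2.80-fold over the 8 tumours, the smallest range of any member.

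IFIT proteins bind viral RNA that lacks the host cap structure, and their genes lie side by side on chromosome 19. Ifit1 (chr19:34640871-34650009) had 248, 529.9, 28.6, 431 and 1038 normalized counts in the high-amplified tumours against 1938, 1225 and 2408 in the not/low-amplified tumours. Ifit2 had 429, 167, 101, 306 and 426 against 689, 504 and 1465. Ifit3 had 181, 261, 14.9, 484 and 511 against 599, 568 and 1287. For all 3 genes the groups did not overlap, MS1163.2 was lowest and MS1166.1 highest. Ifit3 came nearest to overlap, with MS1155.3 at 511 beside MS1349.1 at 568. The log2 fold change was −2.0 (SE 0.77, adjusted p = 0.166, edgeR) for Ifit1 and −1.60 (SE 0.51, adjusted p = 0.122, edgeR) for Ifit2. DESeq2 called Ifit2 (adjusted p = 0.0351) and gave an adjusted p of 0.0615 for Ifit1. The mouse genome holds a near-identical copy of Ifit3, and because reads with several positions were dropped, its level is uncertain.

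OAS proteins make the 2′-5′-linked oligoadenylates that activate RNase L, an enzyme that cuts RNA. Oas3 (chr5:120753098-120777661) had 234, 80.8, 16.2, 418 and 897 normalized counts in the high-amplified and 2802, 1171 and 2215 in the not/low-amplified tumours. Its range over the 8 tumours, 173-fold with only 13 reads in MS1163.2, was the largest of any member. Oas3 also had the largest fold change, −2.62 (SE 0.92, adjusted p = 0.141, edgeR). DESeq2 called it (adjusted p = 0.0288). Oasl1, which encodes a catalytically inactive relative, had 132, 71.4, 9.94, 268 and 296 against 439.6, 541 and 533 and did not overlap between the groups. Oas1a had 332, 403, 36.0, 549 and 1157 against 1234, 994 and 1139.5, with MS1155.3 among the not/low-amplified values. Oas1a also has near-identical neighbours, so its counts are uncertain. Oasl2, another relative of the synthetases, had 689.5, 562, 101, 929 and 2052 against 2328, 2032 and 3136 and a log2 fold change of −1.50 (SE 0.68, adjusted p = 0.224, edgeR). Oas2 was highest in MS1155.3 (2561), and DESeq2 gave no adjusted p for it.

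Mx1 (chr16:97447035-97462907), which encodes a dynamin-like GTPase that blocks influenza viruses, was an exception. It had 274, 164, 58.4, 142 and 827 normalized counts in the high-amplified tumours against 254, 152 and 393 in the not/low-amplified tumours. The highest and the lowest value were both in high-amplified tumours, MS1155.3 and MS1163.2. The log2 fold change was 0.17 (SE 0.75, adjusted p = 0.907, edgeR), and it turned negative in the alternatives listed in the closing section. As background, many laboratory mouse strains carry a disrupted Mx1 gene, and the alleles carried here were not examined.

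Other antiviral effectors were represented by Bst2, Rsad2, Cmpk2 and Eif2ak2. Bst2 (chr8:71534255-71537456), which encodes tetherin, a membrane protein that holds budding virus on the cell, had 169, 275, 54.7, 565 and 479 normalized counts against 1317, 1610.2 and 1359.6. The 3 not/low-amplified values lay within 1.22-fold of each other and above all high-amplified values. Bst2 had a log2 fold change of −2.19 (SE 0.59, adjusted p = 0.0878, edgeR), and DESeq2 called it (adjusted p = 0.00716). Without MS1218.2, edgeR called Bst2 (adjusted p = 0.0399) and no other member. In that fit 1255 genes were called in either direction, the most of any fit with 1 tumour left out, so a call there is not particular to Bst2. Rsad2, which encodes viperin, an enzyme that makes a chain-terminating nucleotide, had 222, 316, 47.2, 638 and 1270.1 against 879, 1387 and 1274. The values of Rsad2 overlapped, as MS1155.3 lay among the not/low-amplified tumours. Cmpk2, the nucleotide kinase gene next to Rsad2, was likewise lowest in MS1163.2 (28.6) and highest in MS1349.1 (1262). Eif2ak2, which encodes the double-stranded RNA-activated kinase PKR, had 1437, 1502, 816, 782 and 3012 against 2109, 2073 and 1508. It ranged over only 3.85-fold in the 8 tumours, with a log2 fold change of −0.31 (SE 0.44, adjusted p = 0.695, edgeR), and overlapped between the groups.

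**Figure D2:**
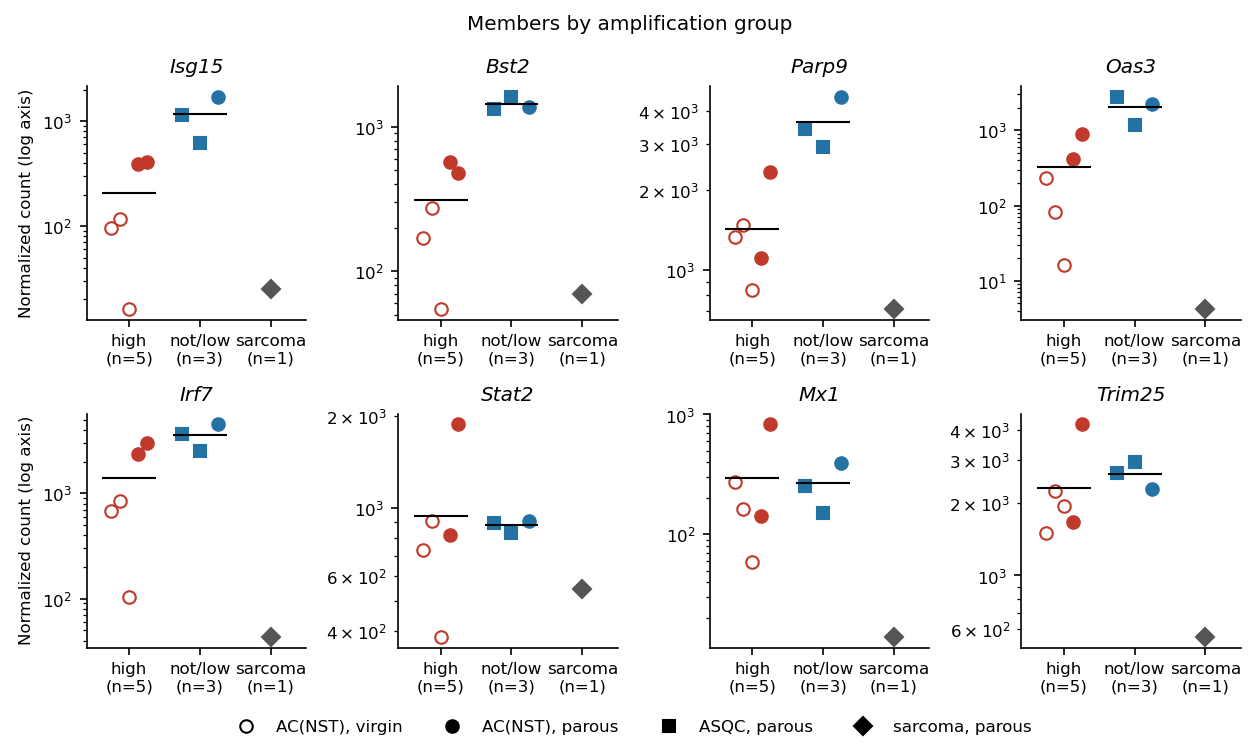
Normalized count (log axis) of 8 members in each tumour by amplification group, with horizontal lines at the group means. Isg15, Bst2, Parp9 and Oas3 do not overlap between these groups, Irf7 overlaps through MS1155.3, and Stat2, Mx1 and Trim25 overlap with MS1155.3 as the highest value.

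The relay factors were Irf7, Irf9 and Stat2. Irf7 (chr7:141262706-141266481), which amplifies interferon production, had 675, 843, 103, 2355 and 2989.7 normalized counts against 3676, 2518 and 4515. The tumours of virgin mice were all lower than the tumours of parous mice, and MS1155.3 lay above MS1349.1. For Irf7 the log2 fold change was −1.33 (SE 0.78, adjusted p = 0.336, edgeR). Irf9, the DNA-binding subunit of ISGF3, had 850.4, 1601, 331, 1559 and 1964 against 1722, 2008.4 and 2950.0, and its log2 fold change was −0.80 (SE 0.49, adjusted p = 0.355, edgeR). Stat2, its partner, had 731, 906, 382, 816 and 1872 against 897, 832 and 911. In 4 of the 5 high-amplified tumours Stat2 lay at or below 906, while MS1155.3 was at 1872. Stat2 had a log2 fold change of 0.12 (SE 0.44, adjusted p = 0.891, edgeR).

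The sensors of viral nucleic acid detect the RNA or DNA that starts interferon production. Ifih1, which encodes the RNA sensor MDA5, had 1382, 1192, 449, 916 and 3077 normalized counts against 2297, 2054 and 2303. Zbp1, a sensor of Z-form nucleic acid, had 242, 154, 84.5, 376 and 650.5 against 604, 382 and 628. Dhx58, which encodes the helicase LGP2, had 741, 648, 73.3, 767 and 1431 against 1539.6, 839 and 923. In all 3 genes MS1163.2 was lowest, and MS1155.3 lay above at least 1 not/low-amplified tumour. The log2 fold change was −0.64 (SE 0.50, adjusted p = 0.470, edgeR) for Ifih1. Ddx58, which encodes RIG-I, had a log2 fold change of −1.04 (SE 0.59, adjusted p = 0.319, edgeR). None of the 4 sensors was separated between the groups, and none had an unadjusted p under 0.05.

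PARP9 and the ubiquitin ligase DTX3L act as a complex, and their genes start head to head on chromosome 16 with exons that share 458 bases on opposite strands. Since the strand setting of the counting was not given in the sources used here, reads in that stretch could belong to either gene. Parp9 (chr16:35938470-35972605) had 1333, 1479.5, 836, 1105 and 2356 normalized counts against 3418, 2909 and 4525. Dtx3l (chr16:35926511-35939151) had 1345, 1391, 1055, 1179 and 2896 against 3732, 3331 and 4388. Both pairs of groups were separated, and MS1155.3 was the nearest high-amplified tumour to the not/low-amplified values. Their log2 fold changes were −1.32 (SE 0.34, adjusted p = 0.0816, edgeR) and −1.26 (SE 0.35, adjusted p = 0.0912, edgeR), and DESeq2 called both (adjusted p = 0.00859 and 0.0161). Parp14, a related ADP-ribosyltransferase gene nearby, overlapped between the groups, from 620.1 to 5097 in the high-amplified and from 3275 to 3643 in the not/low-amplified tumours.

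Guanylate-binding proteins are GTPases that attack the membranes around intracellular pathogens and respond strongly to type II interferon. Gbp3 (chr3:142560026-142573209) had 340.0, 465, 139, 459 and 1128 normalized counts against 1679.5, 2307 and 1074. MS1155.3 lay just above MS1166.1, the lowest not/low-amplified tumour, and the other high-amplified tumours lay below. The log2 fold change of Gbp3 was −1.72 (SE 0.56, adjusted p = 0.123, edgeR), and DESeq2 called it (adjusted p = 0.0327). Gbp2 had 689.5, 399.8, 430.0, 1477 and 1176 against 1851, 1230.3 and 1352, with its highest high-amplified value in MS1218.2. Gbp7 had 779, 514, 461, 563 and 1449 against 1426, 1389 and 674, and both groups held high and low values. Gbp7 shares 637 bases of exon with another annotated gene on the same strand.

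The remaining members were Ifi35, Ifi44, Xaf1 and Rtp4. Rtp4, which encodes a chaperone that carries receptors to the cell surface, had 244, 527, 46.0, 483 and 947 normalized counts against 1485, 1220.1 and 2907. The groups did not overlap, and the log2 fold change of Rtp4 was −2.03 (SE 0.71, adjusted p = 0.140, edgeR), called by DESeq2 (adjusted p = 0.0394). Rtp4 shares 296 bases of exon with another annotated gene on the same strand. Ifi35, whose product binds the protein of Nmi, had 992, 471, 247, 704 and 900.4 against 1756, 1045 and 1338. The lowest not/low-amplified value of Ifi35 lay close above MS1213.1, and the log2 fold change was −1.03 (SE 0.42, adjusted p = 0.184, edgeR). Xaf1, which encodes a binding partner of the apoptosis inhibitor XIAP, had 306, 339, 41.0, 318 and 821 against 601, 507 and 927. Ifi44 ranged from 44.7 in MS1163.2 to 2949.8 in MS1155.3, both high-amplified, and from 1997 to 2259 in the not/low-amplified tumours.

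**Figure D3:**
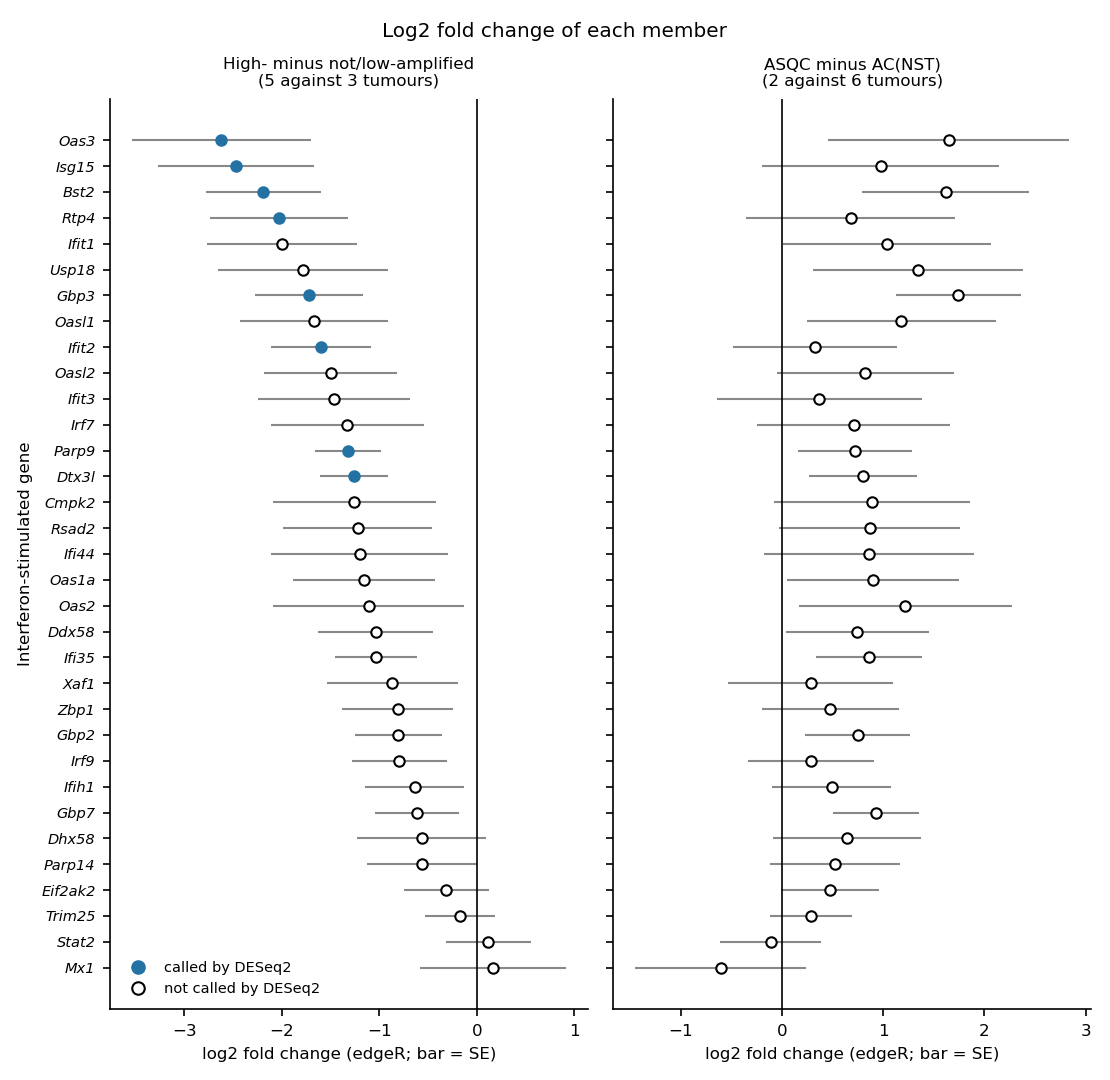
Fitted log2 fold change with its standard error (bar) of each member from edgeR, on the left for high- minus not/low-amplified and ASQC minus AC(NST) tumours on the right, with filled points where DESeq2 called the gene. On the left 31 of 33 points lie below 0 and 8 are filled, and on the right 31 of 33 lie above 0 and 0 are filled.

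By role, all members had lower fitted levels in the high-amplified tumours in 8 of the 10 groups of genes formed here, with median log2 fold changes of −1.78 for the ISG15 system, −1.60 for the IFIT family, −1.50 for the OAS family and −1.26 for the genes of the PARP9 module. The exceptions were Mx1, alone in its group, and Stat2 among the relay factors. The medians nearest to 0 among the 8 were those of the sensors (−0.72) and the guanylate-binding proteins (−0.80). By the promoter search above, the median log2 fold change was −1.19 over the 14 members with a match to the ISRE core. It was −1.26 over the 11 with a promoter but no match to that core. Per kilobase of exon, so that genes can be compared, the mean level over the 8 tumours was highest for Bst2 (807 normalized counts per kilobase), Isg15 (746) and Irf7 (585) and lowest for Mx1 (74.8) and Xaf1 (103).

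ISG levels varied far more among the high-amplified than among the not/low-amplified tumours. The fold range, highest over lowest tumour, had a median over members of 14.2 in the 5 high-amplified and 1.64 in the 3 not/low-amplified tumours, against 2.79 and 1.77 over all genes tested. It was wider in the high-amplified tumours for all 33 members measured, against 74.3% of all genes, and a range over 5 tumours is wider than a range over 3 for most genes. MS1163.2 was the lowest of the 8 epithelial tumours for 30 members, against 14.5% of all genes. MS1155.3 was the highest of the 8 for 11, against 9.19%, and the highest of the 5 high-amplified tumours for 29. MS1163.2 also had the lowest depth of the 9 libraries and MS1155.3 the next lowest.

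An ISG score was formed for each tumour as the mean over the 33 members of log2(normalized count + 1) minus the gene's median over the 8 epithelial tumours. The high-amplified tumours scored −0.87, −0.92, −2.97, −0.42 and 0.65, in the order given above, and the not/low-amplified tumours scored 0.74, 0.58 and 0.88. The groups overlapped through MS1155.3, which lay between MS1349.1 and MS1210.1. The mean score was −0.91 ± 1.31 (SD, n = 5) with high amplification and 0.73 ± 0.15 (SD, n = 3) without.

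MS1163.1 and MS1163.2, high-amplified AC(NST) tumours of virgin mice numbered for the same animal, differed in nearly every member. Levels were higher in MS1163.1 for 32 of 33 members and over 2-fold higher for 23, against 8.37% of all genes tested. The median log2 ratio of MS1163.1 to MS1163.2 over the members was 2.25, which is 4.77-fold, against a median log2 ratio of −0.02 and a median absolute log2 ratio of 0.43 over all genes. Usp18 differed most, at 308 and 8.70 normalized counts, a ratio of 35.5. Ifit1 (18.5-fold), Ifit3 (17.5-fold), Ifi44 (13.3-fold), Rtp4 (11.5-fold) and Oas1a (11.2-fold) followed. In MS1163.2 the largest of these ratios rest on few reads, 7 for Usp18, 23 for Ifit1 and 12 for Ifit3. Gbp2 was the 1 member at a lower level in MS1163.1, with 399.8 against 430.0. Each tumour is 1 library, so these ratios have no replicate check.

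**Figure D4:**
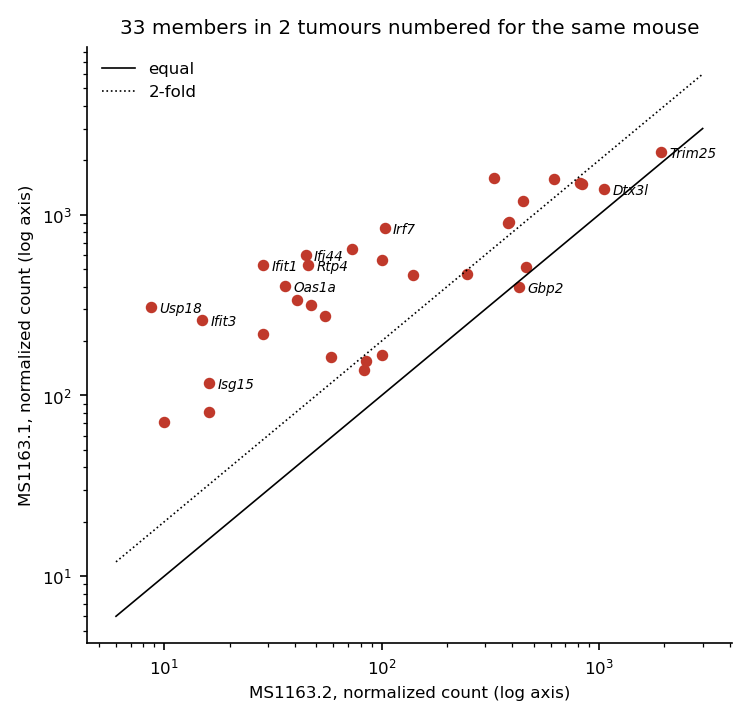
Normalized counts of the 33 members in MS1163.1 (vertical axis) against MS1163.2 (horizontal axis), both on log axes, with a solid line at equality and a dotted line at 2-fold. 32 points lie above the solid line and 23 above the dotted line, with Usp18 farthest from equality and Gbp2 below it.

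By reproductive history, the 3 tumours of virgin mice had the lowest 3 ISG scores of the 8. Among these 3, MS1163.1 and MS1163.2 are numbered for the same mouse, and MS1163.2 was the lowest of the 8 for 30 members. The 5 tumours of parous mice, whatever their amplification, all lay above the 3 tumours of virgin mice for 16 members, against 5.35% of all genes. The 3 not/low-amplified tumours alone lay above the 3 tumours of virgin mice for 30 members, against 17.1%. Among the high-amplified tumours, both of parous mice lay above the 3 of virgin mice for 16 members, against 11.7%. With reproductive history as a covariate the median log2 fold change by amplification fell in size from −1.20 to −0.31, and among tumours of parous mice alone it was −0.28, with 0 members called in either fit by edgeR and 2 and 5 members lower in the high-amplified tumours at an unadjusted p under 0.05, against 6.27% and 4.53% of all genes. Both fits take the amplification difference from only 2 high-amplified tumours of parous mice, MS1218.2 and MS1155.3, and these were unlike. MS1218.2 lay below all not/low-amplified tumours for 32 members and MS1155.3 for 13, against 35.4% and 32.4% of all genes. These fits therefore cannot separate reproductive history from the level of 1 tumour. Among AC(NST) tumours alone, where MS1166.1 is the 1 not/low-amplified tumour and is assumed to vary like the others, the median was −1.35.

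When the 2 ASQC were set against the 6 AC(NST) tumours, the fitted level was higher in ASQC for 31 of 33 members, against 44.9% of all genes, with a median log2 fold change (ASQC minus AC(NST)) of 0.75 against −0.08 over all genes. EdgeR called 0 members, against 0.221% of all genes called higher in ASQC, and DESeq2 called 0, against 1.27%. At an unadjusted p under 0.05 edgeR gave 1 member, Gbp3, against 4.38% of all genes in that direction. Gbp3 was also the 1 member in which both ASQC tumours lay above every AC(NST) tumour, against 5.3% of all genes: it had 1679.5 and 2307 normalized counts in ASQC and at most 1128 in AC(NST). Its log2 fold change by histotype was 1.74 (SE 0.62, adjusted p = 0.468, edgeR). For Bst2 the value was 1.62 (SE 0.82, adjusted p = 0.616, edgeR) and for Gbp7 0.93 (SE 0.43, adjusted p = 0.587, edgeR). Mx1 was the member with the lowest value, −0.61 (SE 0.85, adjusted p = 0.880, edgeR).

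MS1166.1, an AC(NST) without high amplification, is the 1 epithelial tumour in which histotype and amplification part. It lay above both ASQC tumours for 17 members, between them for 10 and below both for 6, where 42.3% of all genes lay above both and 38.7% below both. It had the highest level of the 8 tumours for Isg15, Ifit1, Ifit2, Ifit3, Irf7, Irf9, Rtp4, Parp9 and Dtx3l, among others. With amplification as a covariate the histotype median turned to −0.11, and among the 3 not/low-amplified tumours alone it was −0.07. In both fits MS1166.1 alone stands for AC(NST) without high amplification and is assumed to vary like the other tumours. EdgeR called 0 members in both. At an unadjusted p under 0.05 the first gave 0 members, against 3.98% of all genes lower and 6.92% higher in ASQC, and the second gave 3 lower and 1 higher, against 9.7% and 9.98%.

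The sarcoma, a single tumour that cannot be tested, had low levels of most members. Put on the same scale, it lay below the median of the 8 epithelial tumours for 31 members and below all 8 for 12, against 20.7% of all genes, and above all 8 for 0, against 21.8%. The median of the 8 over the sarcoma had a median over members of 4.32. Its ISG score was −2.71, close to that of MS1163.2. The sarcoma had 4.19 normalized counts of Oas3, 11.2 of Usp18, 14.0 of Mx1, 15.4 of Oas1a, 25.2 of Isg15 and 43.3 of Irf7. Ifit2, at 1465, was as high as in MS1166.1 (1465), the highest epithelial tumour, while its neighbours Ifit1 (90.9) and Ifit3 (189) were low. Gbp7 (871) was the other member above the epithelial median. Bst2 had 69.9, Stat2 545, Irf9 507, Parp9 710.1, Dtx3l 651 and Rtp4 32.1 normalized counts.

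The members moved together across the 8 epithelial tumours. Spearman's rank correlation was above 0 in all 528 pairs of members, with a median of 0.79, against a median of 0 over pairs of all genes tested. These are descriptions over 8 tumours that share size factors and include 2 tumours numbered for 1 mouse. Of the 33 members, 28 had a correlation of at least 0.7 with the mean of the other members, against 7.26% of all genes with the ISG score. The order of Oasl2 across the tumours was that of the mean of the others with a correlation of 1, followed by Irf7 (0.98), Isg15, Oas3 and Ifit3 (0.95 each). The lowest were Mx1 (0.52), Trim25 (0.60), Stat2 and Eif2ak2 (0.67 each) and Gbp7 (0.69).

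The interferon genes themselves were near 0. Of 11 listed genes of types I, II and III, 10 were in the files and none passed the filter on counts. Their summed counts were 1, 0, 5, 3 and 0 reads in the high-amplified, with 8, 10 and 10 in the not/low-amplified group, and the sarcoma had 0. These sums are raw reads, and MS1210.1 and MS1349.1 were also the deepest libraries. Divided by the size factors the groups overlapped, as MS1163.2 (5 reads, factor 0.80) lay above MS1210.1 (8 reads, factor 1.42). Ifnb1, a type I interferon, had 2, 3 and 5 reads in MS1210.1, MS1349.1 and MS1166.1, 2 in MS1218.2 and 0 in the other 5 tumours, sarcoma included. Ifng, the type II interferon, had 1 read in MS1213.1, 2 in MS1163.2 and 0 elsewhere. With so few reads no test was made.

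Receptor, kinase and STAT genes were not called. Of the 11 receptor and JAK-STAT genes, all tested, edgeR and DESeq2 called 0. At an unadjusted p under 0.05 in edgeR, 1 was higher in the high-amplified tumours, against 11.8% of all genes. Ifnar1, a type I receptor chain, had 2385, 1973, 2407, 2078 and 1939.9 normalized counts in the high-amplified and 1721, 1770.2 and 1317 in the not/low-amplified tumours. Its order across tumours ran against the ISG score (Spearman's rho −0.90, 8 tumours). Ifnar2, the other chain, ranged from 511 to 1113. Ifnlr1, the receptor chain of type III interferon, had 326, 238, 149, 254 and 827 against 331, 459.5 and 582, a rho of 0.86. Ifnlr1 was lowest in MS1163.2 and highest in MS1155.3.

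Other lists of the pathway had medians nearer to 0. Of 58 further ISGs in the files, 57 were tested, and the fitted level was lower in the high-amplified tumours for 44 of them, against 49% of all genes, with a median log2 fold change of −0.47. EdgeR called 0 of these, with 7 lower and 2 higher in the high-amplified tumours at an unadjusted p under 0.05, against 11% and 11.8% of all genes. DESeq2 called 2 of the 57, Ifi27l2a and Nmi, higher in the not/low-amplified tumours, against 4.32% of all genes. It called Ifi205 and Pml higher in the high-amplified tumours, and the share of all genes called in that direction is not given here, so these calls have no background. Ifi205, a DNA-binding PYHIN-family gene, had 316, 182, 497, 515 and 128 normalized counts against 67.5, 116 and 54.7 and so ran against the members (log2 fold change 2.05 (SE 0.56, adjusted p = 0.0883, edgeR)). Nmi, whose protein binds that of Ifi35, had 176, 123, 80.8, 169 and 206 against 251, 334 and 363. The 14 interferon-gamma-inducible GTPases tested had a median of −0.54, the 14 upstream genes of nucleic acid sensing 0.16, and the 7 negative regulators 0.04. EdgeR and DESeq2 called 0 genes in each of these lists. At an unadjusted p under 0.05 in edgeR, 2, 1 and 0 genes were higher in the not/low-amplified tumours, against 11% of all genes. In the high-amplified tumours 0, 0 and 1 were higher, against 11.8%. Irf1, the factor that drives many interferon-gamma targets, had 783, 527, 526, 1109.9 and 1203 against 817, 789.8 and 1234, and its groups overlapped.

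Markers of the cell types that a bulk tumour holds were summed per tumour beside the ISG levels. Leukocyte markers (6 genes) summed to between 2287 and 14132 in the high-amplified and between 1244 and 7448 in the not/low-amplified tumours. They were highest in MS1218.2 and lowest in MS1166.1, the tumour with the highest ISG score. Macrophage markers (7 genes) summed to between 6347 and 49995 against 3589 to 14609.5, with the same tumours at the ends. MS1155.3, the high-amplified tumour with high ISG levels, had 3821 for leukocytes and 6962 for macrophages, beside 3564 and 9128 in MS1163.2. T cell markers (6 genes) summed to at most 188 in any of the 8 tumours, cytotoxic lymphocyte markers (6 genes) to at most 199, B cell markers (5 genes) to at most 82.4 and neutrophil markers (5 genes) to at most 462. Of the 5 markers listed for the plasmacytoid dendritic cell, a known source of interferon, Tcf4, which other cells also express, made up most of the sum, at 1818 to 3204 normalized counts. Siglech, the defining marker, lay between 0 (MS1166.1) and 52.8 (MS1218.2), and Ccr9 and Pacsin1 reached at most 12.0 and 28.6. Clec10a was higher, between 15.5 (MS1166.1) and 1311 (MS1218.2), with 467 in MS1163.2. Endothelial and fibroblast markers (6 genes each) were highest of the 8 in MS1218.2, at 12866 and 290876.

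Luminal markers followed the ISG score in part, with a median Spearman's rho of 0.69 over the 5 genes (8 tumours). Their sum was 30715 to 48492 in the high-amplified and 73976 to 126241 in the not/low-amplified tumours, with MS1163.2 lowest and MS1166.1 highest. MS1155.3, whose ISG score lay among those of the not/low-amplified tumours, had 45943, within the high-amplified range. Basal epithelium markers (5 genes) were 1092 to 11844 against 11693 to 58464, but the genes of this list differed. Krt17 (rho 0.93) and Krt14 (0.83) followed the ISG score, while Krt5 (0.19), Trp63 (0.095) and Acta2 (−0.17) did not. Acta2, which smooth muscle and fibroblasts also express, made up most of the highest high-amplified sum (11087 in MS1218.2). MS1166.1 held 6495 of Krt14 and 8476 of Krt17 but the lowest Krt5 (11.9) and Trp63 (13.1) of the 8. The luminal sum spanned 4.11-fold over the 8 tumours, but its genes differed. Krt19 lay between 98.6 (MS1163.1) and 25709 (MS1166.1), while Epcam lay between 7106 (MS1163.2) and 15685 (MS1166.1). All not/low-amplified tumours lay above all high-amplified tumours for 3 of the 5 luminal genes, against 8.04% of all genes. DESeq2 called 2 of the 5, Krt8 and Krt19, higher in the not/low-amplified tumours, against 4.32%, and edgeR called 0. The part of epithelial content in the ISG levels was not tested.

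**Figure D5:**
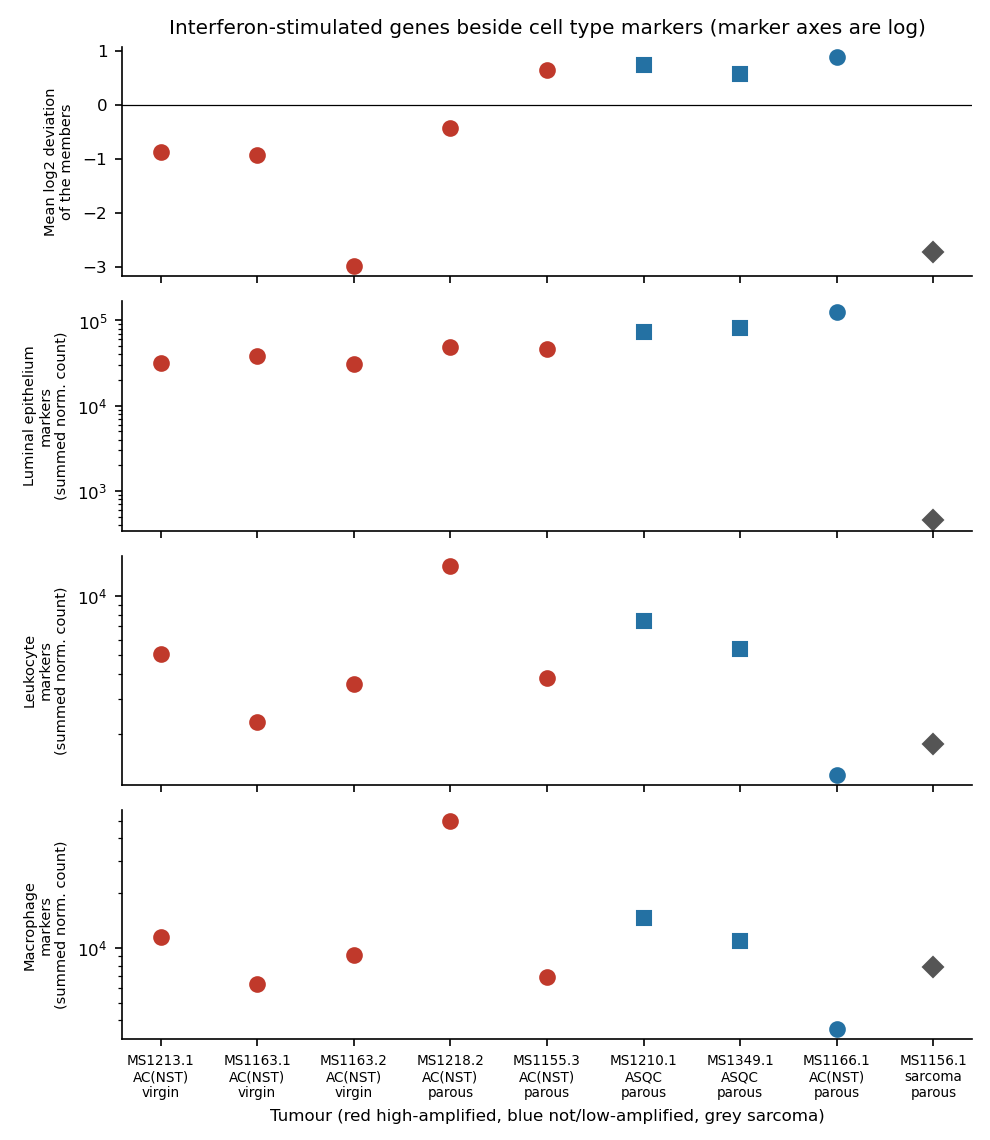
ISG score (mean log2 deviation of the 33 members from their medians over the 8 epithelial tumours, top) and summed normalized counts of luminal epithelium, leukocyte and macrophage markers (log axes, below) in each tumour, with circles for AC(NST), squares for ASQC and a diamond for the sarcoma. MS1166.1 has the highest ISG score and luminal sum and the lowest leukocyte and macrophage sums of the 8 epithelial tumours, and MS1163.2 has the lowest ISG score and luminal sum.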

How the data were processed

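Total RNA of 9 snap-frozen tumours was depleted of ribosomal RNA and sequenced in pairs from strand-specific libraries. The authors aligned reads to GRCm38, kept reads with a unique position and deposited raw counts per gene from HTSeq. For the 8 epithelial tumours the authors also deposited signal values, which equal these counts divided by DESeq2's size factors; the sarcoma, deposited as counts alone, was scaled with size factors over 9 tumours.

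The 14007 genes with 10 or more counts in 3 or more of the 8 epithelial tumours were tested with edgeR 4.0.16 (TMM scaling, quasi-likelihood, Benjamini-Hochberg adjustment) under R 4.3.3 and called with an adjusted p under 0.05 and over 2-fold. Groups came from the labels, and each tumour was a replicate. Alternatives were DESeq2 1.42.0, limma 3.58.1 on log2 normalized counts (pseudocount 1 or 10), other filters and scalings, covariates and each tumour left out. The fits were tested on simulated data. Places are from GENCODE M21.

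The members, pathway lists and markers were chosen with earlier results of these data known. Values in every tumour are given for members called or not overlapping between groups, the 3 widest and 3 narrowest ranges, 17 leading members of the role groups, members with 1 tumour far from the rest, and, from other lists, genes fixed by name; Ifnlr1, Ifi205 and Nmi were added after their values were seen. Some genes of the pathway lists are not reported here.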

Additional observations from a re-analysis of the deposited data

Results flagged for a closer look

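In groups of 5 or 6 tumours, a value was singled out where its gap to the next tumour was large for the group's range (Dixon's criterion on the log2 scale). Of 66 combinations of a member and a group (the high-amplified and the AC(NST) tumours), 5 were singled out, and chance gives about 1 in 20. Dhx58, the gene of the sensor LGP2, was far below the others in MS1163.2 (73.3 normalized counts), both among the 5 high-amplified and among the 6 AC(NST) tumours. Oas1a (36.0) and Xaf1 (41.0) were likewise far below the others in MS1163.2 among the AC(NST) tumours. Dtx3l was far above the others in MS1155.3 (2896) among the high-amplified tumours.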

How the results depend on the processing

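Of the 475 log2 fold changes of 23 named results under alternatives, 455 kept their direction and their side of the threshold, 9 passed it newly (8 with DESeq2, and Bst2 without MS1218.2) and 11 changed direction. DESeq2 called 8 members by amplification status where edgeR called 0, and limma called 0 with either pseudocount. With each tumour left out in turn, edgeR called between 0 and 1 members by amplification status. The number of members below 0 lay between 27 (tumours of parous mice alone) and 33. The median over members lay between −1.74 (without MS1155.3) and −0.89 (without MS1163.2) when 1 tumour was left out, and was −1.68 with limma at a pseudocount of 1, −0.98 with the tumours of the same mouse summed, −0.79 with the sarcoma set with the not/low-amplified tumours, −0.31 with reproductive history as a covariate and −0.28 in tumours of parous mice alone. Mx1 turned to −0.31 and −0.28 with limma (pseudocounts 1 and 10), to −0.45 in AC(NST) tumours alone, and lay between −0.70 and 0.54 with 1 tumour left out. Stat2 turned to −0.0892 and −0.0863 with limma and lay between −0.29 and 0.32 with 1 tumour left out; MS1155.3 was the tumour without which both were lowest. Eif2ak2 turned to 0.0516 in tumours of parous mice alone, 0.0183 with reproductive history as a covariate and 0.0149 with the sarcoma included. The histotype median turned to −0.11 with amplification status as a covariate and −0.0684 in not/low-amplified tumours alone. The causes were not tested, beyond the fewer tumours or added terms of these fits. The count of all genes called moved between 1 and 1255 with 1 tumour left out. No paired analysis was possible because the labels give the groups no shared replicate numbers, and the numbers used to leave out a tumour only name it. Leaving out MS1213.1 and MS1218.2 together was chosen after seeing the data. The groups hold 3 or 5 tumours, amplification, histotype and reproductive history overlap, no batch is named, and the 10 interferon genes had at most 10 reads in sum in any tumour.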
